A study of Mus musculus with 12 samples.

Results

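The genes described here were 10 members of the BCL2 family, which sets whether a cell survives or dies by the mitochondrial route of apoptosis. They were taken by symbol from the deposited count table: the survival genes Bcl2, Bcl2l1, Mcl1, Bcl2a1a, Bcl2a1b and Bcl2a1d, the BH3-only death genes Bcl2l11, Bbc3 and Pmaip1, and the effector Bax. All 10 were among the 22561 genes of the table, and 9 passed the filter on low counts that left 9431 genes for testing. Bcl2a1a was the member that did not pass. RNA came from follicular (FO) B cells sorted from spleens of C57BL6 mice aged 10 weeks, and the design comprised 12 samples in 4 conditions of 3 samples each. The first condition, Unstimulated, received no stimulus. The others were stimulated for 12 h. One received IFNα (a type I interferon), another CpG (an unmethylated DNA ligand of TLR9), and the last CpG and IFNα together (CpG + IFNα). The series was designed to examine how gene expression in FO B cells is shaped by co-stimulation.

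Survival proteins of this family sit on the outer mitochondrial membrane and hold the pore-forming effectors BAX and BAK in check. BH3-only proteins, whose genes respond to loss of survival signals, DNA damage or other stress, bind the survival proteins and free the effectors, after which cytochrome c leaves the mitochondrion and caspases are activated. Mature B cells are known to depend on MCL1 and BCL2, and to induce A1 (the product of the Bcl2a1 genes) and BCL-XL (the product of Bcl2l1) upon activation.

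Each library held between 922450 and 2923865 counted RNA molecules. The totals were 922450 to 1103064 in Unstimulated, 1067324 to 1689570 with IFNα, 1393018 to 1985810 with CpG and 1884673 to 2923865 with CpG + IFNα. All 6 libraries with CpG were thus deeper than the Unstimulated ones, and those with IFNα alone overlapped with them. Levels are given as normalized CPM, the share of a gene in the counts of its library after TMM scaling. The library method tags the 3′ end of each RNA once, so the counts do not grow with gene length. Levels of different genes are still not fully comparable. Reads can fall outside an annotated gene or match several genes, as described below for the A1 copies. Sums, shares and ratios of different genes are therefore approximate. All 9 B cell markers examined were detected in every condition. Their summed level was 17600 to 20300 CPM in Unstimulated, 16800 to 18800 with IFNα, 6090 to 6400 with CpG and 5420 to 5560 with CpG + IFNα, and all 9 fell with CpG. Of the 5 T cell genes in the table, Cd3g and Cd8a were at 0 in every sample, Cd3d was at 0 in all but 1, and Trac stayed at 3.04 CPM or less. The sum of the 5 was almost all Lck, which went from 35.9 ± 7.45 CPM in Unstimulated to 6.57 ± 3.85 with CpG. The 6 myeloid genes summed to 4.41 to 25.7 CPM in Unstimulated, to 0 with IFNα and to at most 1.64 in any sample with CpG. The 6 erythroid genes summed to 57.4 to 345 CPM in Unstimulated, to 15.3 to 336 with IFNα and to at most 72 in any sample with CpG. The 5 marginal zone B cell genes summed to 220 to 222 CPM in Unstimulated, 88.8 to 123 with IFNα, 43.6 to 57 with CpG and 28.4 to 36.5 with CpG + IFNα, and the 5 plasma cell genes to 255 to 380 CPM in Unstimulated and 181 to 271 in the other conditions. The sum of the 5 plasmacytoid dendritic cell genes went from 75.5 to 92.7 CPM in Unstimulated to 1490 to 1950 with IFNα, and from 98.4 to 149 CPM with CpG to 1040 to 1200 with CpG + IFNα, almost all as Bst2 and Ly6c2, while Siglech and Klk1 were at 0 in every sample. The part of these marker changes in the results on the BCL2 family was not tested. In bulk RNA, fewer cells carrying a transcript and less of it per cell cannot be told apart.

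With IFNα alone, Bcl2, Bcl2a1b and Pmaip1 fell and Bbc3, which encodes the BH3-only protein PUMA, rose. That made 4 of 9 tested members at an adjusted p under 0.1 in the edgeR quasi-likelihood test, where 24.3% of all tested genes were called, 12.4% as higher and 11.9% as lower. Over all genes these were 1173 higher and 1122 lower, and without composition scaling 924 higher and 1483 lower. At a fold change over 2 as well, 3 members passed, against 8.63% of all genes. The median log2 fold change was -0.05 for the members and 0 for all genes.

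With CpG alone, Bcl2l1, Bcl2a1b, Bcl2a1d, Bcl2l11, Bbc3 and Bax rose, and Mcl1 and Pmaip1 fell. The 8 called members of 9, 6 higher and 2 lower, stood near the share of all genes called, which was 74.9%, of which 36.5% were higher and 38.4% lower, and with the fold change over 2 as well, 7 members stood beside 45.6%. Their median log2 fold change was 1.33, and that of all genes was -0.03. With CpG + IFNα against Unstimulated, all 9 tested members were called, 7 higher and 2 lower, where 76.4% of all genes were called, 37.6% as higher and 38.8% as lower. At a fold change over 2 as well there were 7, beside 45.9% of all genes, and the median was 1.46 for the members and -0.01 for all genes. Both comparisons used the same Unstimulated samples. The deposited counts label the Unstimulated samples as naive (spelled naiive). Whether these cells spent the 12 h in culture is not given in the sources used here. Culture and stimulus can therefore not be told apart in any comparison with them.

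The comparison of CpG + IFNα with CpG asked what IFNα added when it was given together with the TLR9 ligand. Bcl2, Bbc3 and Bax rose, and Bcl2l11, Bcl2a1b and Bcl2a1d fell. These were 6 of 9 members, where 15.4% of all genes were called, 6.54% as higher and 8.83% as lower. This balance over all genes, 617 higher and 833 lower, turned to 721 and 528 with no filter on low counts, and to 714 and 690 without ribosomal RNA and mitochondrial genes. None of the 6 changed by more than 2-fold, the rule that 4.96% of all genes passed. The median log2 fold change of the members was -0.07, beside -0.04 for all genes. Bcl2a1b and Bcl2a1d share much of their sequence near the 3′ end, as described below. A single A1 signal can therefore enter this and the other member counts and medians more than once. The calls of Bcl2 and Bcl2l11 held under every alternative setting other than this fold rule, and the other 4 calls were lost under some of them. An interaction term in the same fit tested whether the effect of IFNα differed with and without CpG, and it was called for Bcl2, Bcl2l11 and Pmaip1. These were 3 of 9 members, 2 with a positive and 1 with a negative difference. Of all genes, 13.4% were called, 5.84% with a positive and 7.58% with a negative difference. All 3 members also passed with the fold over 2, as did 6.26% of all genes.

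**Figure D1:**
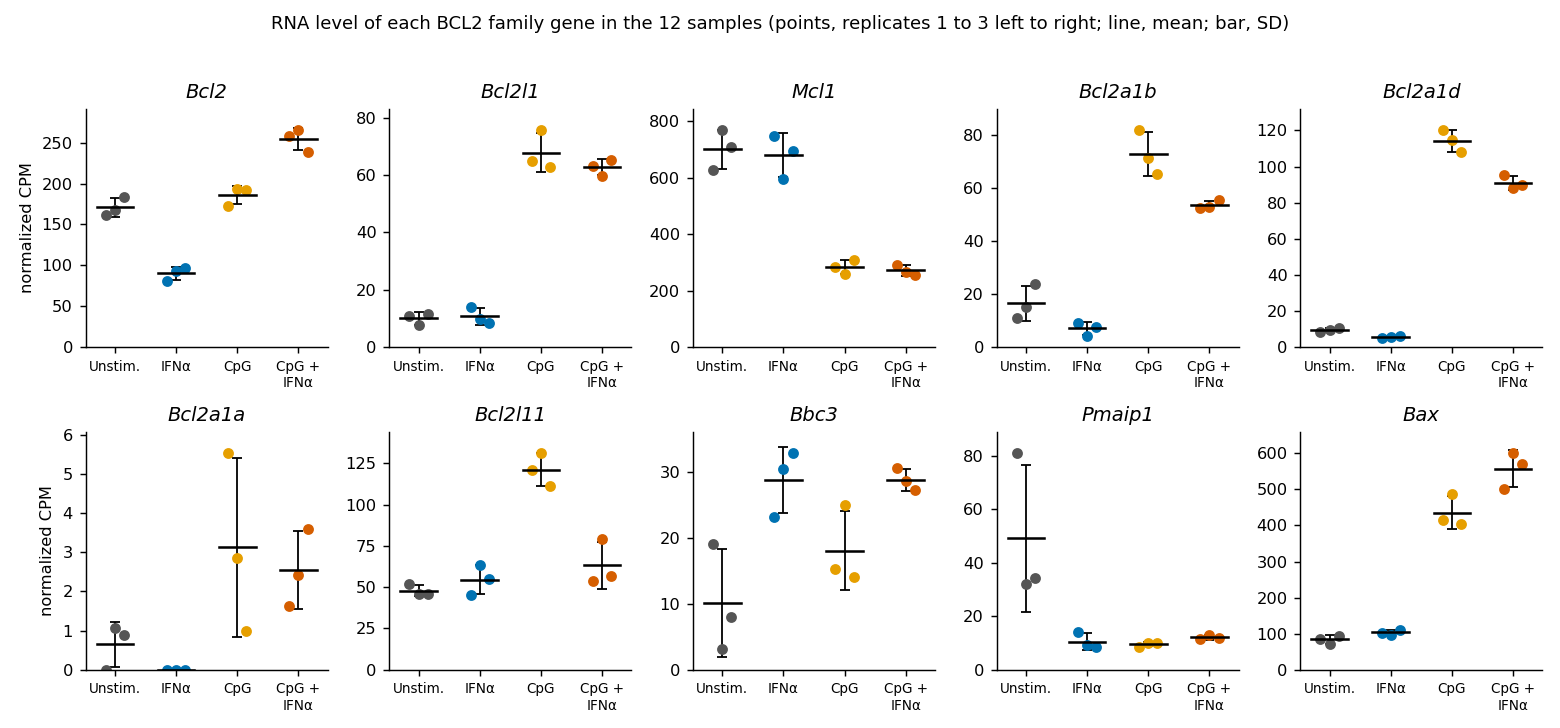
Level of each BCL2 family gene in normalized CPM (y axis, from 0, a separate scale for each gene) in the 4 conditions (x axis). Points are the 3 samples of a condition, horizontal lines the mean and vertical bars the SD. Bcl2 was lowest with IFNα (80.7 to 96.9 CPM) and highest with CpG + IFNα (239 to 265 CPM), while Mcl1 fell and Bcl2l1, Bcl2a1d and Bax rose in both conditions that held CpG.

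Summed over the 6 survival genes, the level was 908 ± 78.6 CPM (SD, n = 3) in Unstimulated and 792 ± 77.4 CPM with IFNα, against 728 ± 8.54 CPM with CpG and 735 ± 27.0 CPM under co-stimulation. The sum therefore moved little compared with its composition. Mcl1 made up 75.4 to 79.2% of it in Unstimulated and 84.2 to 87.3% with IFNα, but 36.2 to 41.7% with CpG and 36.0 to 38.2% with CpG + IFNα. The share of Bcl2 was 17.3 to 19.7% in Unstimulated, 9.43 to 13.1% with IFNα, 23.7 to 26.9% with CpG and 33.7 to 36.1% with CpG + IFNα. The 4 death genes summed to 191 ± 43.1 CPM in Unstimulated and 197 ± 10.3 CPM with IFNα, against 584 ± 61.8 CPM with CpG and 661 ± 62.6 CPM under co-stimulation. Bax accounted for 36.3 to 51.7% of the death-gene sum in Unstimulated and for 83.2 to 85.6% with CpG + IFNα. No test was made on these sums, which are RNA levels and not protein.

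**Figure D2:**
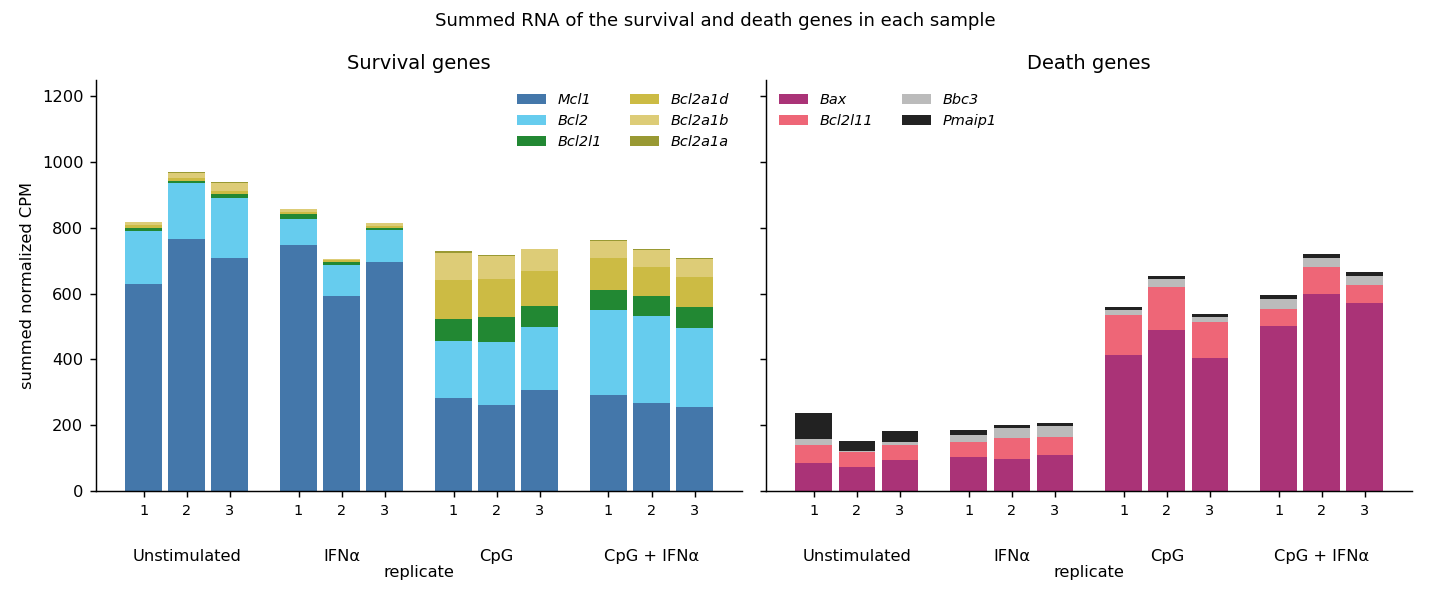
Stacked bars of the normalized CPM of the 6 survival genes (left) and the 4 death genes (right) in each of the 12 samples (x axis, replicates 1 to 3 of each condition), on a shared y axis from 0. The survival-gene sum stayed between 706 and 968 CPM while the Mcl1 part shrank with CpG, and the death-gene sum went from at most 238 CPM without CpG to at least 538 CPM with CpG, mostly as Bax.

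Mcl1 encodes a short-lived survival protein that sequesters BIM, PUMA, NOXA and BAK, and it was the most abundant survival gene in every sample, by a narrow margin over Bcl2 in CpG + IFNα replicate 2 (267 and 265 CPM). It lies at chr3:95658788-95663176 on the plus strand (GRCm38). Its level was 628, 767 and 707 CPM in the Unstimulated samples and 747, 594 and 695 CPM with IFNα. It was 284, 260 and 307 CPM with CpG and 291, 267 and 255 CPM with CpG + IFNα. The samples without CpG all lay above those with CpG, and within each of these pairs of conditions the ranges overlapped. Against Unstimulated, Mcl1 was down-regulated with CpG by a log2 fold change of -1.30 (SE 0.12, adjusted p = 9.93e-12) and with CpG + IFNα by -1.37 (SE 0.11, adjusted p = 2.03e-12). For the addition of IFNα, the log2 fold change was -0.05 without CpG (95% confidence interval -0.28 to 0.18, adjusted p = 0.825) and -0.07 with CpG (95% confidence interval -0.30 to 0.17, adjusted p = 0.789).

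Bcl2 is the founding survival gene of the family, and its product blocks BIM and BAX. It was lower with IFNα than in Unstimulated, and higher with CpG + IFNα than with CpG. The gene lies at chr1:106538178-106714274 on the minus strand. Its level was 161, 168 and 184 CPM in Unstimulated and 80.7, 92.4 and 96.9 CPM with IFNα. It was 173, 193 and 192 CPM with CpG and 258, 265 and 239 CPM with CpG + IFNα. The IFNα samples lay below all others and the CpG + IFNα samples above all others, while Unstimulated and CpG overlapped. Set against Unstimulated, IFNα alone gave a log2 fold change of -0.92 (SE 0.13, adjusted p = 8.72e-07), and CpG alone gave 0.12 (95% confidence interval -0.11 to 0.35, adjusted p = 0.354). Added to CpG, IFNα raised Bcl2 by 0.45 (SE 0.11, adjusted p = 0.00308). The difference between these effects of IFNα was 1.37 on the log2 scale (SE 0.17, adjusted p = 4.65e-07). This difference rests in part on the Unstimulated samples, for which culture and stimulus cannot be told apart. Against Unstimulated, CpG + IFNα gave 0.57 (SE 0.11, adjusted p = 3.3e-05), with all 3 samples above all 3 Unstimulated samples.

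Bcl2l1 encodes BCL-XL, a survival protein of activated lymphocytes, and its RNA followed CpG. The gene lies at chr2:152780668-152831728 on the minus strand. The Unstimulated samples held 10.9, 7.49 and 11.5 CPM and the IFNα samples 14.1, 9.73 and 8.39 CPM. With CpG the levels were 65.1, 75.6 and 62.9 CPM, and with CpG + IFNα they were 63.3, 59.7 and 65.3 CPM. No sample with CpG came near those without it. The log2 fold change against Unstimulated was 2.73 with CpG (SE 0.22, adjusted p = 9.65e-13) and 2.62 with CpG + IFNα (SE 0.22, adjusted p = 1.75e-12), a 6.64-fold and a 6.16-fold rise. CpG + IFNα against CpG gave -0.11 (95% confidence interval -0.39 to 0.18, adjusted p = 0.711).

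A1 is encoded in the mouse by several near-identical genes on chromosome 9, of which Bcl2a1a (chr9:88956900-88962419, plus strand), Bcl2a1b (chr9:89199209-89207827, plus strand) and Bcl2a1d (chr9:88723285-88731914, minus strand) are described here. A further copy in the table, Bcl2a1c, held at most 9 counts in any sample, did not pass the filter and is in none of the A1 values. The coding sequences, each of 516 bases in the GENCODE M21 transcripts, were 97.87% identical between Bcl2a1a and Bcl2a1b, 98.64% between Bcl2a1a and Bcl2a1d and 98.84% between Bcl2a1b and Bcl2a1d. These 3 copies differed at 12 coding positions in all, and 5 of these fell in the first 30 coding bases, which are shown because the copies differ most densely at this 5′ end, away from the 3′ end where the reads fall (5′ to 3′, GRCm38, capitals at the positions where any copy differs).
Bcl2a1a: atgGctgagtCTgagCtcatgCatatccac
Bcl2a1b: atgGctgagtACgagTtcatgTatatccac
Bcl2a1d: atgTctgagtACgagTtcatgTatatccac

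Near the 3′ end, where the reads fall, the copies were in part indistinguishable. Of the windows of 81 bases (the read length) in the last 300 bases of the transcript, 45.5% of those of Bcl2a1a, 56.4% of those of Bcl2a1b and 94.1% of those of Bcl2a1d were also found in another of these 3 copies. The annotation further places Gm29094 (chr9:89199379-89215471, plus strand) over Bcl2a1b, and Gm29094 was not analysed here. How reads that match several copies were counted is not given in the sources used here, so the values of single copies are uncertain, and the rows of Bcl2a1a, Bcl2a1b and Bcl2a1d were therefore also added up.

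The summed A1 level was 19.1, 25.7 and 35.3 CPM in Unstimulated and 14.1, 9.73 and 13.7 CPM with IFNα. It was 208, 190 and 175 CPM with CpG and 149, 143 and 149 CPM with CpG + IFNα. The 4 conditions did not overlap. A1 rose 7.08-fold with CpG (log2 fold change 2.82, SE 0.16, adjusted p = 2.51e-16) and 5.47-fold with CpG + IFNα (2.45, SE 0.17, adjusted p = 8.53e-15). It was lower with IFNα in both settings, by a log2 fold change of -1.13 without CpG (SE 0.26, adjusted p = 0.00143) and of -0.37 with CpG (SE 0.12, adjusted p = 0.0325). The latter call was lost without CpG replicate 1 (-0.31, adjusted p = 0.17) or without CpG + IFNα replicate 2 (-0.35, adjusted p = 0.126). The difference between these effects was 0.76 (SE 0.28, adjusted p = 0.093) and lost its call when any library other than Unstimulated replicate 1 or CpG replicate 1 was left out, down to 0.56 (adjusted p = 0.33) without Unstimulated replicate 3.

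Taken as deposited, Bcl2a1d carried the largest induction of any member. It measured 8.19, 9.63 and 10.6 CPM in Unstimulated and 5.04, 5.47 and 6.11 CPM with IFNα, then 120, 115 and 108 CPM with CpG and 95.5, 88.0 and 89.9 CPM with CpG + IFNα. The fold change was 12.0 with CpG (log2 3.58, SE 0.19, adjusted p = 4.26e-17) and 9.53 with CpG + IFNα (log2 3.25, SE 0.20, adjusted p = 5.37e-16). Bcl2a1b measured 10.9, 15 and 23.8 CPM in Unstimulated and 9.08, 4.26 and 7.63 CPM with IFNα, then 81.7, 71.3 and 65.4 CPM with CpG and 52.4, 52.8 and 55.5 CPM with CpG + IFNα. It rose 4.33-fold with CpG (log2 2.11, SE 0.21, adjusted p = 2.1e-10) and 3.19-fold with CpG + IFNα (log2 1.67, SE 0.22, adjusted p = 3.73e-08). Both copies were thus high wherever CpG was present and highest with CpG alone.

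With IFNα alone, Bcl2a1b was lower than in Unstimulated (-1.33, SE 0.34, adjusted p = 0.00466), whereas Bcl2a1d gave -0.76 (SE 0.35, adjusted p = 0.182) although its IFNα samples lay below all its Unstimulated samples. With CpG present, IFNα gave -0.44 for Bcl2a1b (SE 0.15, adjusted p = 0.0628) and -0.33 for Bcl2a1d (SE 0.12, adjusted p = 0.0624), again without overlap between the samples. Both of these calls were lost in the DESeq2 Wald test (adjusted p = 0.265 and 0.322). That of Bcl2a1b was also lost without replicate 1 or 2 of CpG or of CpG + IFNα (adjusted p = 0.107 to 0.256), and that of Bcl2a1d without Unstimulated replicate 3, CpG replicate 1 or 2, or CpG + IFNα replicate 2 or 3 (adjusted p = 0.127 to 0.205). The difference between the effects of IFNα was 0.89 for Bcl2a1b (adjusted p = 0.148), which was called without Unstimulated replicate 1 (1.12, adjusted p = 0.0708), and 0.42 for Bcl2a1d (adjusted p = 0.579). Bcl2a1a was close to the limit of detection: counts of 0, 1 and 1 in Unstimulated, 0 in all 3 IFNα samples, 9, 4 and 2 with CpG, and 3, 7 and 7 with CpG + IFNα. A count of 0 in the IFNα libraries allows a level of up to 1.82 to 3.03 CPM (3 counts per library, counting error only), and the CpG samples held 5.53, 2.85 and 0.998 CPM. Bcl2a1a was therefore not tested, and no fold change is given.

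Bcl2l11 encodes BIM, the BH3-only protein that removes B cells lacking survival signals and binds all survival members. The gene lies at chr2:128126038-128162547 on the plus strand. Its level was 51.9, 46.0 and 45.9 CPM in Unstimulated and 45.4, 63.2 and 54.9 CPM with IFNα. CpG alone gave 121, 131 and 111 CPM, and CpG + IFNα gave 53.5, 79.3 and 56.5 CPM. The CpG samples stood above all others. Bcl2l11 rose with CpG by a log2 fold change of 1.33 (SE 0.16, adjusted p = 1.21e-08) and was lower by -0.91 when IFNα was added to CpG (SE 0.14, adjusted p = 8.79e-06). IFNα alone gave 0.21 (95% confidence interval -0.17 to 0.58, adjusted p = 0.482), and the difference between the effects of IFNα was -1.12 (SE 0.23, adjusted p = 0.00131). CpG + IFNα against Unstimulated gave 0.42 (SE 0.17, adjusted p = 0.0281), a call that was lost without CpG + IFNα replicate 2 (0.22, adjusted p = 0.269) and when the counts of each library were thinned to the lowest depth (0.16, adjusted p = 0.472). CpG + IFNα against IFNα gave 0.21 (adjusted p = 0.236), which was called without IFNα replicate 2 (0.35, adjusted p = 0.0887) or CpG + IFNα replicate 1 (0.33, adjusted p = 0.0812).

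With Bcl2 higher and Bcl2l11 lower under co-stimulation, the ratio of their counts differed between the CpG conditions. There were 3.11 to 4.0 Bcl2 counts per Bcl2l11 count in Unstimulated, 1.46 to 1.78 with IFNα, 1.43 to 1.72 with CpG and 3.34 to 4.83 with CpG + IFNα. The ratio was thus low when either stimulus was given alone, and it was in the range of the Unstimulated samples or above when both were given. Over all 10 members, the counts of survival genes per count of death genes were 3.44 to 6.33 in Unstimulated and 3.53 to 4.61 with IFNα. They were 1.1 to 1.37 with CpG and 1.02 to 1.28 with CpG + IFNα. This wider ratio thus lay below the Unstimulated range under co-stimulation as well. Both ratios are given as a description, with no test.

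Bbc3 encodes PUMA, a BH3-only protein known as a p53 target that binds all survival members. The gene lies at chr7:16308393-16318205 on the plus strand. It was a low gene, at 19.1, 3.21 and 7.94 CPM in Unstimulated and 23.2, 30.4 and 32.8 CPM with IFNα. With CpG it measured 15.3, 24.9 and 14.0 CPM, and with CpG + IFNα it measured 30.5, 28.6 and 27.2 CPM. Both conditions with IFNα lay above their counterparts without it, and the Unstimulated and CpG samples overlapped. Bbc3 rose with IFNα alone by a log2 fold change of 1.49 (SE 0.33, adjusted p = 0.00103) and with CpG + IFNα against Unstimulated by 1.46 (adjusted p = 0.000112). Both sizes depended on replicate 1 of Unstimulated, without which they were 2.33 (adjusted p = 1.64e-05) and 2.32 (adjusted p = 1.2e-06), and both calls held whichever library was left out. IFNα added to CpG gave 0.70 (SE 0.25, adjusted p = 0.0665), which was lost without either CpG replicate 1 or 3 or CpG + IFNα replicate 1 or 2 (adjusted p = 0.146 to 0.306). That call was also lost in the DESeq2 Wald test (0.71, adjusted p = 0.164) and with thinned counts (0.72, adjusted p = 0.191). CpG against Unstimulated gave 0.76 (SE 0.35, adjusted p = 0.053), which fell to 0.41 without Unstimulated replicate 2 (adjusted p = 0.287), to 0.57 without Unstimulated replicate 3 (adjusted p = 0.206) and to 0.52 without CpG replicate 2 (adjusted p = 0.213), and went up to 1.61 without Unstimulated replicate 1 (adjusted p = 0.000847). The difference between the effects of IFNα was -0.78 (95% confidence interval -1.65 to 0.08, adjusted p = 0.28), and it was called without Unstimulated replicate 1 (-1.62, adjusted p = 0.0273).

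Pmaip1 encodes NOXA, a BH3-only protein that binds MCL1 and A1 and promotes the degradation of MCL1. The gene lies on chromosome 18, at positions 66458533 to 66465565 of the plus strand. It was high in Unstimulated, at 81, 32.1 and 34.4 CPM, and low elsewhere, at 14.1, 9.12 and 8.39 CPM with IFNα, 8.6, 9.98 and 9.98 CPM with CpG and 11.5, 13.1 and 11.8 CPM with CpG + IFNα. Replicate 1 of Unstimulated stood far above the other two, yet all 3 lay above every stimulated sample. Against Unstimulated, Pmaip1 fell with IFNα by a log2 fold change of -2.27 (SE 0.31, adjusted p = 6.82e-07), with CpG by -2.37 (SE 0.30, adjusted p = 1.77e-08) and with CpG + IFNα by -2.01 (SE 0.27, adjusted p = 6.58e-08). Leaving out 1 library at a time, the IFNα effect ranged from -2.52 to -1.70 and stayed called. Without Unstimulated replicate 1, the CpG effect was -1.78 (adjusted p = 1.56e-06) and the CpG + IFNα effect -1.42 (adjusted p = 1.61e-05). IFNα added to CpG gave 0.36 (95% confidence interval -0.33 to 1.04, adjusted p = 0.582), and the difference between the effects of IFNα was 2.63 (SE 0.46, adjusted p = 0.000182). Jun, a stress-response transcription factor gene, was likewise highest in Unstimulated, at 1030, 556 and 1050 CPM, against 35.9 to 57.5 CPM with IFNα, 115 to 133 CPM with CpG and 154 to 184 CPM with CpG + IFNα. Atf3, another such gene, was high only in replicate 1 of Unstimulated (86.4, 10.7 and 15 CPM) and was not low in the stimulated conditions throughout, at 3.05 to 7.06 CPM with IFNα, 26.4 to 37.9 CPM with CpG and 80.7 to 84.2 CPM with CpG + IFNα. Replicate 1 was the highest Unstimulated sample for Pmaip1, Bbc3 and Atf3, but not for Jun. The part of this in the Pmaip1 result was not tested.

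Bax encodes the effector that forms pores in the outer mitochondrial membrane. The gene lies at chr7:45461697-45466898 on the minus strand. Its level was 86.4, 71.7 and 94.4 CPM in Unstimulated and 103, 97.3 and 110 CPM with IFNα, and rose to 414, 488 and 403 CPM with CpG and to 501, 600 and 570 CPM with CpG + IFNα. The 4 conditions did not overlap. The rise was 5.13-fold with CpG (log2 2.36, SE 0.13, adjusted p = 1.08e-16) and 6.58-fold with CpG + IFNα (log2 2.72, SE 0.13, adjusted p = 1.59e-18). IFNα gave 0.29 without CpG (95% confidence interval -0.01 to 0.59, adjusted p = 0.189) and 0.36 with CpG (SE 0.11, adjusted p = 0.0254), and the difference between these was 0.07 (95% confidence interval -0.30 to 0.45, adjusted p = 0.871). The call with CpG was lost without CpG replicate 1 (adjusted p = 0.114), CpG replicate 3 (adjusted p = 0.152) or CpG + IFNα replicate 2 (adjusted p = 0.144).

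**Figure D3:**
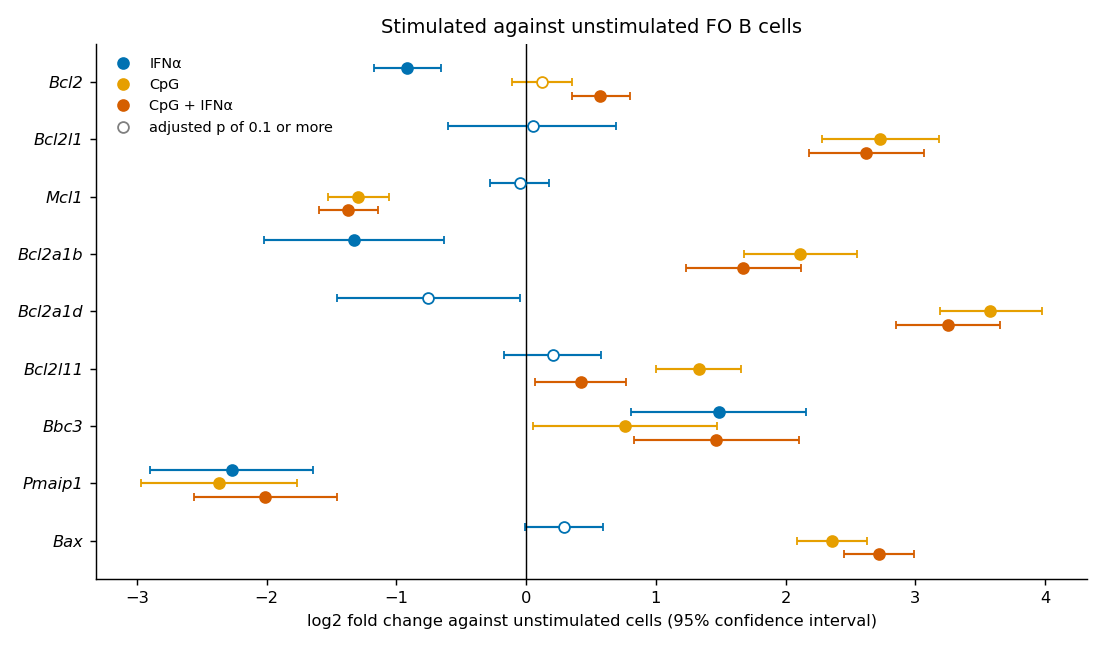
Log2 fold change against Unstimulated (x axis, points with 95% confidence intervals from the edgeR fit) for the 9 tested members (y axis) with IFNα, CpG and CpG + IFNα, with open points at an adjusted p of 0.1 or more. With CpG the changes ran from -2.37 for Pmaip1 to 3.58 for Bcl2a1d, and the IFNα changes ran from -2.27 for Pmaip1 to 1.49 for Bbc3.

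The stimulated conditions were also compared with each other. Against IFNα alone, CpG + IFNα changed 6 of 9 members, 5 higher and 1 lower, with 75.9% of all genes called (36.1% higher and 39.8% lower). All 6 passed at a fold change over 2 as well, beside 44.3% of all genes. Bcl2 (log2 fold change 1.49), Bcl2l1 (2.58), Bcl2a1b (3), Bcl2a1d (4.01) and Bax (2.43) were higher and Mcl1 (-1.32) was lower, each at an adjusted p of 4.3e-12 or less. The BH3-only genes were the ones not called, at 0.21 for Bcl2l11, -0.02 for Bbc3 (95% confidence interval -0.51 to 0.46) and 0.26 for Pmaip1 (95% confidence interval -0.46 to 0.98). CpG against IFNα changed 8 of 9 members, 6 higher and 2 lower, with 75.5% of all genes called (37% higher and 38.5% lower), and 7 at a fold change over 2 as well, beside 44.1%. In that comparison Bcl2 (1.04), Bcl2l1 (2.69), Bcl2a1b (3.44), Bcl2a1d (4.34) and Bax (2.07) were higher and Mcl1 (-1.25) was lower, each at an adjusted p of 4.25e-09 or less. Bcl2l11 was higher by 1.12 (adjusted p = 9.78e-08), Pmaip1 gave -0.10 (95% confidence interval -0.88 to 0.69), and Bbc3 was lower by -0.73 (adjusted p = 0.0172), a call that was lost without CpG replicate 3 (-0.53, adjusted p = 0.112).

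**Figure D4:**
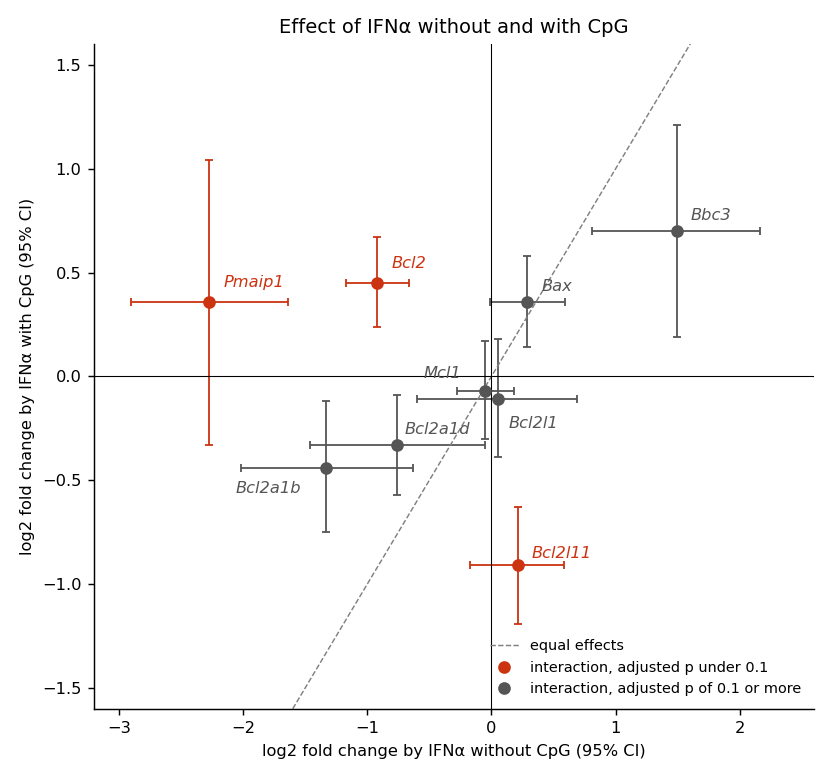
Log2 fold change by IFNα without CpG (x axis, IFNα against Unstimulated) and with CpG (y axis, CpG + IFNα against CpG) for the 9 tested members, with 95% confidence intervals, on axes of different scale. The dashed line marks equal effects, and the members with a called interaction are drawn in red: Bcl2 (-0.92 and 0.45), Bcl2l11 (0.21 and -0.91) and Pmaip1 (-2.27 and 0.36).

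The promoters of these genes were searched for motifs of the pathways downstream of the stimuli, NF-κB for TLR9 and the interferon-stimulated response element (ISRE) for IFNα. RefSeq promoter windows (GRCm38.p6, 250 bases before to 50 bases after the start) were at hand for 9 members in 14 windows, with none for Pmaip1. The NF-κB motif was written as GGG, any 2 bases and TTTCC, and the ISRE as GAAA, any 2 bases and GAAA, and both strands were read. The NF-κB letters were in 3 of 14 windows, compared with 1.63% of all 32851 promoters. The ISRE letters were in 0 of 14 windows, compared with 3.44% of all promoters. The 3 matches all lay on the strand opposite to the gene and are shown with 10 bases on either side, 5′ to 3′ on the strand of the gene, with the match in capitals. Of the 3 genes, CpG raised Bcl2l1 and lowered Mcl1, and the rise of Bbc3 with CpG did not hold without single libraries. The positions are counted from the start of the RefSeq window that held the match. Bcl2l1 and Bbc3 had 3 windows each, and their matches lay inside the genes as placed above, before a start further downstream, whereas the Mcl1 match lay before the gene. A match is no evidence of binding.
Bcl2l1 (chr2:152830916-152830945, minus strand, first base of the match at -218 from the start): tacgcctctcGGAAAAACCCgggagtggtc
Mcl1 (chr3:95658683-95658712, plus strand, first base of the match at -28): ccagccctccGGAAACGCCCgcccctttcc
Bbc3 (chr7:16309437-16309466, plus strand, first base of the match at -136): ctggctgccgGGAAACCCCCcgcgccgagg

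Of 16 further family genes, 13 were in the table and 8 passed the filter. None of the 8 was called with IFNα alone in edgeR, where 24.3% of all genes were called, and the counts at an unadjusted p under 0.05 and by the DESeq2 Wald test were also 0. With CpG, 4 rose and 3 fell, at a median log2 fold change of -0.03, the same as that of all genes. These 7 of 8 stood near the 74.9% of all genes called for CpG, and in this and the further lists the counts for CpG are to be read against that share. The genes that rose were Bcl2l2, which encodes the survival protein BCL-W (5.65 ± 1.28 to 9.89 ± 0.642 CPM, mean ± SD, n = 3, log2 0.80, adjusted p = 0.0722), Bcl2l13 (23.6 ± 7.73 to 45.9 ± 2.31 CPM, log2 0.97, adjusted p = 0.000141), Bak1, which encodes the effector BAK (41.5 ± 6.8 to 52.9 ± 2.89 CPM, log2 0.36, adjusted p = 0.0606), and Bid, whose product links death receptors to mitochondria (43.2 ± 10.7 to 82.6 ± 9.45 CPM, log2 0.92, adjusted p = 2.38e-05). The RNA of the effector BAK was thus raised by less than that of BAX, for which the log2 fold change was 2.36.

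The genes that fell with CpG were Bad (-0.87, adjusted p = 0.0148), Bmf (-2.87, adjusted p = 8.84e-09) and Bnip3l (-2.28, adjusted p = 5.5e-12). Bmf and Bad encode BH3-only proteins, and the product of Bnip3l is known as a mitophagy receptor. Bmf measured 40.0, 31.0 and 22.1 CPM in Unstimulated, 27.2, 19.5 and 25.9 CPM with IFNα, 3.07, 3.56 and 5.49 CPM with CpG and 0, 1.38 and 1.03 CPM with CpG + IFNα, the last resting on a handful of counts. Bnip3l went from 70.3 ± 4.27 CPM in Unstimulated to 14.6 ± 4.05 with CpG and 6.87 ± 1.62 with CpG + IFNα. Bmf (-2.12, SE 0.61, adjusted p = 0.0189) and Bnip3l (-1.08, SE 0.27, adjusted p = 0.00535) were the 2 of these 8 genes called for CpG + IFNα against CpG, both lower, where 8.83% of all genes were lower, with a median of -0.31 over the 8 genes. For Bnip3l the effect of IFNα also differed with and without CpG (-1.21, SE 0.31, adjusted p = 0.0102). Bcl2l12 gave -0.41 with CpG (adjusted p = 0.315).

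**Figure D5:**
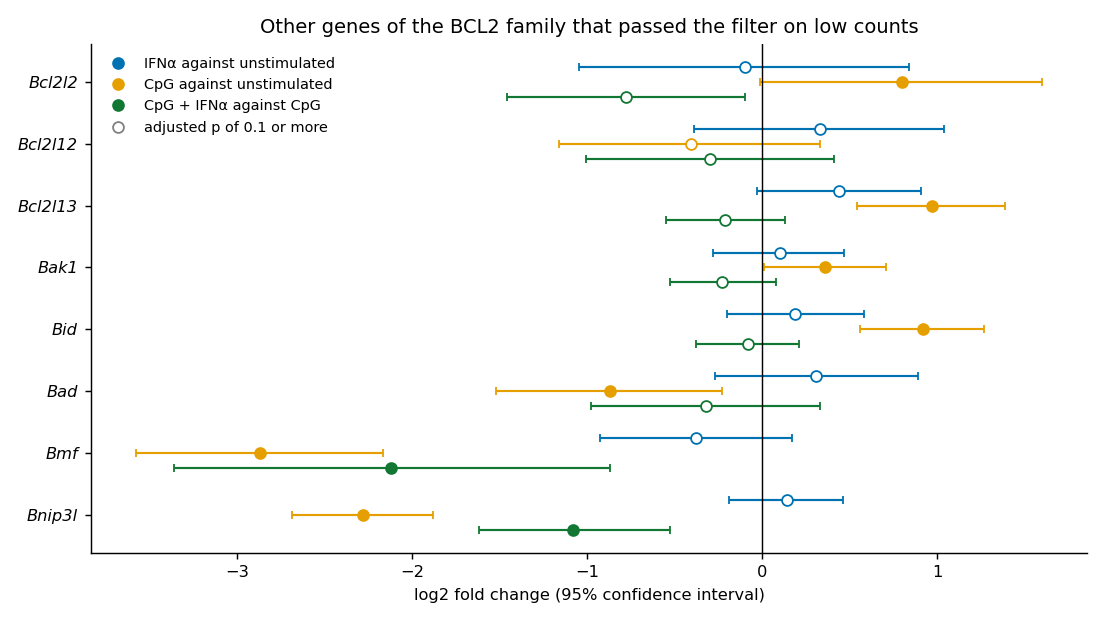
Log2 fold change (x axis, points with 95% confidence intervals from the edgeR fit) of the 8 other BCL2 family genes that passed the filter (y axis), for IFNα and CpG against Unstimulated and for CpG + IFNα against CpG, with open points at an adjusted p of 0.1 or more. Bmf and Bnip3l fell with CpG and again when IFNα was added, and no IFNα effect without CpG was called.

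Downstream of the mitochondrion, 13 of 15 genes of the apoptosome and caspases were tested. With CpG 3 rose and 8 fell (median log2 fold change -0.43), so that 11 of 13 were called beside 74.9% of all genes, of which 38.4% were lower. Cycs, which encodes the cytochrome c released through BAX pores, rose from 25.7 ± 1.59 to 123 ± 15.4 CPM (2.26, adjusted p = 1.86e-13), and Casp9, the caspase it activates, fell from 27.4 ± 10.1 to 2.94 ± 1.77 CPM (-3.24, adjusted p = 8.45e-09). CpG + IFNα against CpG raised 1 gene and lowered 2 (median -0.07), beside 15.4% of all genes called. IFNα alone raised 2 and lowered 1 (median 0.14), beside 24.3%. The gene raised under co-stimulation was Casp8, the initiator of the death receptor route (56.3 ± 9.9 to 94.3 ± 6.64 CPM, 0.73, adjusted p = 0.000332), which IFNα alone raised as well (50.1 ± 8.49 to 98.4 ± 11.6 CPM, 0.97, adjusted p = 2.72e-05). The genes lowered were Parp1 (-0.50, adjusted p = 0.0029) and Dffa (-0.66, adjusted p = 0.0125), both substrates of caspases.

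All 6 caspase inhibitors examined were tested. With CpG 1 rose and 4 fell (median -0.56), beside 36.5% of all genes higher and 38.4% lower. Among the genes that fell were Birc3 (-1.38, adjusted p = 7.49e-12) and Birc2 (-1.93, adjusted p = 2.19e-09), which encode the cIAP ubiquitin ligases. Co-stimulation raised 2 over CpG and lowered none (median 0.09), where 6.54% of all genes were higher. Cflar, whose product c-FLIP restrains caspase-8, went from 107, 128 and 108 CPM with CpG to 242, 286 and 234 CPM with CpG + IFNα (1.16, SE 0.11, adjusted p = 1.11e-09). It was at 98.8 to 104 CPM in Unstimulated and at 94.8 to 111 CPM with IFNα, so the CpG + IFNα samples stood apart from all others, and the interaction was 1.11 (SE 0.18, adjusted p = 5.19e-05). The other was Birc2 (0.70, adjusted p = 0.0393).

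Of 12 death receptor genes, 8 were tested. IFNα alone raised 2 and lowered none (median 0.33), where 12.4% of all genes were higher. CpG raised none and lowered 3 (median -0.18), or 2 by the DESeq2 Wald test, where 74.9% of all genes were called in edgeR, and the difference from that share was not tested. Among those lowered was Fcmr, the Fc receptor for IgM, which went from 1600 ± 146 to 60.5 ± 10.5 CPM. CpG + IFNα against CpG raised 3 and lowered none (median 0.28), or 2 by the DESeq2 Wald test, where 6.54% of all genes were higher in edgeR. Tnfsf10, which encodes the ligand TRAIL, was at 0, 0 and 0.499 CPM with CpG and at 9.82, 6.21 and 6.17 CPM with CpG + IFNα. It was highest with IFNα alone, at 18.2, 18.8 and 16.0 CPM, against 2.73, 2.14 and 8.82 CPM in Unstimulated. The TRAIL receptor gene Tnfrsf10b went from 8.62 ± 4.46 to 23.2 ± 3.62 CPM (1.5, SE 0.30, adjusted p = 0.000501), with an interaction of 2.54 (adjusted p = 0.00456). The third gene, Ripk1, rose by 0.57 (adjusted p = 0.0466).

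Regulators of the turnover of MCL1 and NOXA proteins numbered 8 tested of 10 listed. With CpG 3 rose and 3 fell (median -0.12), where 74.9% of all genes were called, and CpG + IFNα against CpG raised 2 and lowered 3 (median -0.06), where 15.4% of all genes were called. Marchf5, which encodes a mitochondrial ubiquitin ligase, went from 76.2 ± 11.1 to 128 ± 1.95 CPM (0.76, adjusted p = 2.72e-05), and was at 53.9 ± 2.54 CPM in Unstimulated and 76.6 ± 10.3 with IFNα. Fbxw7, the substrate receptor of an MCL1 ligase, rose by 0.54 (adjusted p = 0.00732). Fbxo4 was lower by -0.55 (adjusted p = 0.0128).

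Transcription factors known to drive BH3-only genes numbered 11 tested of 12. IFNα alone raised 2 and lowered 6 (median -0.70), beside 12.4% of all genes higher and 11.9% lower. CpG raised 4 and lowered 6 (median -1.35), beside 36.5% and 38.4% of all genes. IFNα added to CpG raised 4 and lowered none (median 0.32), a count that was 2 with the DESeq2 Wald test, where 6.54% of all genes were higher in edgeR. Irf1, an interferon-induced factor, went from 3.35 ± 2.47 CPM with CpG to 23.2 ± 2.84 with CpG + IFNα (2.77, adjusted p = 8.34e-08). Both levels were below those without CpG, which were 104 ± 27.7 CPM in Unstimulated and 177 ± 7.01 with IFNα. Atf3 went from 33.8, 26.4 and 37.9 to 82.9, 84.2 and 80.7 CPM (1.32, adjusted p = 0.00152), and Atf4, the factor of the integrated stress response, from 603 ± 22.9 to 826 ± 44.3 CPM (0.46, adjusted p = 0.00197).

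All 9 listed NF-κB subunit and inhibitor genes were tested. IFNα alone raised none and lowered 5 (median -0.45), where 11.9% of all genes were lower. CpG raised 3 and lowered 5 (median -0.49), and these 8 of 9 stood near the 74.9% of all genes called. For CpG + IFNα against CpG, edgeR and the DESeq2 Wald test called 0 (median 0.17), with 1 at an unadjusted p under 0.05, where 15.4% of all genes were called in edgeR. Rel, which encodes the subunit c-Rel, known to drive A1 and BCL-XL in B cells, fell with CpG from 336 ± 55.1 to 104 ± 7.73 CPM (-1.70, adjusted p = 1.36e-13), and Nfkbib, an inhibitor gene, rose from 88.0 ± 3.58 to 206 ± 13.0 CPM (1.23, adjusted p = 9.88e-10). These are levels at 12 h, and earlier time points were not analysed here.

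Of 13 B cell survival receptor and signaling genes, 12 were tested. CpG raised 4 and lowered 7 (median -0.54), a count of 11 of 12 beside 74.9% of all genes. CpG + IFNα against CpG raised 4 and lowered 4 (median 0.09), or 8 of 12 beside 15.4% of all genes. Pim2, a survival kinase gene, rose with CpG from 48.7 ± 10.1 to 461 ± 24.1 CPM (3.25, adjusted p = 2.06e-19) and was lower with CpG + IFNα at 223 ± 20.1 CPM (-1.05, SE 0.11, adjusted p = 6.39e-09). Cd40, the receptor for T cell help, was higher with CpG + IFNα than with CpG (215 ± 24.4 and 125 ± 13.2 CPM, 0.78, adjusted p = 9.53e-06), and lower with IFNα alone than in Unstimulated (83.7 ± 0.328 and 132 ± 20.1 CPM, -0.65, adjusted p = 0.000854). Genes of the outer mitochondrial membrane and of mitochondrial fission rose with CpG in 8 of 8 cases (median 0.71), or in 7 with the DESeq2 Wald test, where 36.5% of all genes were higher in edgeR. Among them was Tomm20 at 49.8 ± 5.57 and 181 ± 16.0 CPM (1.86, adjusted p = 1.03e-13). CpG + IFNα against CpG lowered 1 of these 8, near the 8.83% of all genes lower there, which was Vdac1 (-0.41, adjusted p = 0.0149).

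The tested genes whose pattern over the 4 condition means was nearest to each member were found by the root mean square difference of centred log2 CPM, without regard to function. For Bcl2 these were Alkbh1 (0.077), Pgs1 and AA474408, for Bcl2l1 Tomm5 (0.025), Aprt and Nol10, and for Mcl1 Sharpin (0.015), 1700030K09Rik and Tmem245. For Bcl2a1b they were Gcsh (0.026), Prag1 and Gk, and for Bcl2a1d Cdca7 (0.132), Nfkbiz and Ctps. Among the death genes, they were Ost4 (0.052), Bckdhb and Spc25 for Bcl2l11, Gm20045 (0.043), Tor1aip2 and Tcof1 for Bbc3, Matk (0.083), Gla and Gm43737 for Pmaip1, and Wdr43 (0.025), Sox5 and Pwp2 for Bax. No member was among the nearest genes of another.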

How the data were processed

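RNA was measured by BRB-seq, a 3′ method with molecular barcodes (UMIs), in 12 samples, 3 in each of 4 conditions given by the GEO labels. The authors deposited raw counts of UMIs per gene, made with UMI-tools 1.1.2, Trim Galore 0.6.7, HISAT2 2.2.1 (GRCm38) and featureCounts 2.0.1 per the labels. Counting overlapping or multiply mapped reads is not described in the sources used here. The counts were tested with edgeR 4.0.16 (quasi-likelihood test, TMM scaling, genes kept by filterByExpr, 1 fit of all 12 samples with 8 residual degrees of freedom) in R 4.3.3, with Benjamini-Hochberg adjustment over 9431 genes. A gene was called at an adjusted p under 0.1, and by a stricter rule also at a fold change over 2. DESeq2 1.42.0 was an alternative, and scripts were tested on simulated data. All 22561 gene IDs were in GENCODE M21, which gave positions.

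The members and gene lists were chosen with earlier results of these data known. Named were all 10 members, all tested genes of the other BCL2 family list, and the 3 genes nearest to each member. Each further list was to give up to 3 genes with the smallest p for CpG + IFNα against CpG. It was also to give up to 2 for CpG against Unstimulated. Not all genes picked in this way are named in the text. Nothing in the labels says that the samples of a condition came from separate animals or cultures, so p-values measure the spread between these samples, which may be technical. Confidence intervals (95%) come from the edgeR fit, and the limit of detection of 3 counts covers counting error only.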

Additional observations from a re-analysis of the deposited data

Results flagged for a closer look

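For Bcl2, Bcl2l11 and Pmaip1 the effect of IFNα on the log2 scale differed between cells with and without CpG in the interaction test, and for the summed A1 genes it did so only at the margin. The difference (the effect with CpG minus that without) was 1.37 for Bcl2, which was lower with IFNα alone and higher when IFNα was added to CpG. It was -1.12 for Bcl2l11, for which the effect was 0.21 without CpG and -0.91 with it. For Pmaip1 it was 2.63, from -2.27 without CpG and 0.36 with it. For the summed A1 genes it was 0.76 (edgeR, adjusted p = 0.093), from -1.13 and -0.37, and this call was lost with DESeq2, with no filter on low counts, with thinning and without any library other than Unstimulated replicate 1 or CpG replicate 1 (0.56, adjusted p = 0.33, without Unstimulated replicate 3). The effect without CpG rests on the Unstimulated samples, for which culture and stimulus cannot be told apart.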

How the results depend on the processing

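Every comparison was repeated under other scalings, filters, tools, depths and sample sets. The calls of Bcl2, Bcl2l1, Mcl1, Bax and Pmaip1 against Unstimulated, and of Bcl2 and Bcl2l11 for CpG + IFNα against CpG, held in every one, apart from the rule on fold change. For CpG + IFNα against CpG, the members called went from 6 to 3 with the DESeq2 Wald test, to 3 with libraries thinned to the lowest depth and to 0 with the fold change over 2 (over all genes, 617 higher and 833 lower became 468 and 451 with DESeq2, and 448 and 513 of 8674 with thinning), and ranged from 2 to 6 when 1 library was left out, the lowest without CpG replicate 1 or CpG + IFNα replicate 2. The interaction gave 3 to 5 calls in that way, with 5 without Unstimulated replicate 1. The summed A1 level in CpG + IFNα against CpG lost its call with no filter on low counts (-0.31, adjusted p = 0.168) and with DESeq2 (-0.35, adjusted p = 0.15), and ranged from -0.44 to -0.31 with 1 library left out. Its interaction lost the call with no filter (0.82), DESeq2 (0.79) or thinning (0.76), and ranged from 0.56 to 0.95 with 1 library left out. The cause was not tested.

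Signs turned only for differences that were not called as reported. One of them, Bcl2l11 in CpG + IFNα against IFNα, was called with no filter on low counts (0.33, adjusted p = 0.0999) and without IFNα replicate 2 or CpG + IFNα replicate 1 (0.35 and 0.33). For IFNα against Unstimulated, Bcl2l1 went to -0.03 without composition scaling and ranged from -0.14 to 0.19 with 1 library left out, and Mcl1 then ranged from -0.12 to 0.05. For CpG + IFNα against IFNα, with thinning, Bcl2l11 went to -0.03, Pmaip1 to -0.15 and Bbc3 to 0.10. Bbc3 there also went to 0.03 without composition scaling, 0.09 with no filter, 0.02 without ribosomal RNA and mitochondrial genes, 0 with only the groups compared, and ranged from -0.11 to 0.09 with 1 library left out. Pmaip1 for CpG against IFNα ranged from -0.20 to 0.14 with 1 library left out. For the interaction, Bcl2l1 ranged from -0.30 to 0.02 with 1 library left out, and Mcl1 to 0.01 with DESeq2 size factors or the Wald test, 0.06 without composition scaling, 0.03 with no filter, 0.05 without ribosomal RNA and mitochondrial genes, with a range from -0.12 to 0.05 with 1 library left out.

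Over all genes, the interaction called 551 positive and 715 negative differences, and without composition scaling 658 and 530. For IFNα against Unstimulated the 1173 higher and 1122 lower genes became 924 and 1483 in that way. Same-numbered samples of different conditions correlated at -0.065 to 0.205 in their deviations from the condition means, with 5 of 18 pairs over 0.1. The main fit had no block, because the study's methods name none, so it leaves out any pairing by number. Of the 12 samples, 10 correlated best with their own number, and the globin gene Hbb-bs was highest in replicate 1 and lowest in replicate 3 of every condition (220, 101 and 31.8 CPM in Unstimulated, 40.4, 10.7 and 1.03 CPM with CpG + IFNα). With the replicate number as a block, the members called in CpG + IFNα against CpG were again 6 in number, and the summed A1 level there was -0.37 (adjusted p = 0.0215). Over all genes, 692 were then higher and 937 lower.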
